A study of Drosophila melanogaster with 3 samples.

Results

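The genes described here encode the machinery of vesicle trafficking in Drosophila melanogaster: protein-coding genes of the Ensembl BDGP6 annotation whose symbol starts with Cog, Vps, Rab, Sec or CHMP followed by a digit. The rule names 85 genes, and without Cog7, which was left out, 84 members remained of 13968 protein-coding genes on the chromosome arms. They comprise 6 Cog, 19 Sec, 27 Vps, 1 CHMP and 31 Rab genes. The symbols are an imperfect guide to the process. Sec61alpha, Sec61beta, Sec61gamma and Sec63 encode parts of the translocon, the machinery by which proteins enter the endoplasmic reticulum. The VPS13 proteins carry lipids between membranes, and 3 of the 31 Rab genes (Rab3GAP1, Rab3-GAP and Rab3-GEF) encode regulators of Rab proteins. For each member, called regions of chromatin immunoprecipitation with a summit within 500 bp of one of its transcription start sites (TSS) were collected.

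Membrane traffic moves proteins and lipids between compartments in coated vesicles. Coats bud a vesicle, Rab GTPases mark the compartment, tethering complexes (COG at the Golgi, the exocyst at the plasma membrane, HOPS and CORVET at endosomes and lysosomes, GARP and EARP for traffic back to the Golgi or through recycling endosomes) catch it, and SNAREs fuse it. ESCRT complexes pinch membrane away from the cytoplasm to form the inner vesicles of endosomes, and retromer returns cargo from endosomes.

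The measurement is chromatin immunoprecipitation followed by sequencing (ChIP-seq) of the protein encoded by CG13775. There is 1 group of 3 biological replicates, numbered 1, 2 and 4. Each came from whole embryos aged 0 to 24 hours, male and female together, of a transgenic line that carries CG13775 fused at its C terminus to green fluorescent protein (GFP), with an antibody against GFP. The embryos are pools of all tissues and stages, so the value at a gene averages over them.

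No library of an untagged line or of input DNA was analysed here; a control file shared by the replicates is named in the records, without its kind. The files hold called regions and no reads, so depth per library is unknown and no comparison of conditions can be made. The optimal list holds 5862 peaks that passed a test of reproducibility (IDR), and it is the top of the pooled list of 30000 regions by signal. Each replicate list also holds 30000 regions, background among them. Signal is the authors' value for a region. Its scale is not stated and its median was 25.8, 17.3 and 35 in the lists of replicates 1, 2 and 4, so values are compared within a list, mainly as ranks from 1 for the highest signal.

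Genes with the summit of an optimal peak no more than 500 bp from a TSS are called bound below. Of the 84 members, 43 (51.2%) were bound, against 26.2% of all protein-coding genes. A pooled region lay at the TSS of 68 members (81%), against 54% of protein-coding genes. Each replicate list was also restricted to its 5862 regions of highest signal. These called 37 members in replicate 1 (44%, against 25% of protein-coding genes), 41 in replicate 2 (48.8%, against 25.5%) and 44 in replicate 4 (52.4%, against 27.4%). The members' share averaged 48.4% ± 4.21 over the replicates, and that of all protein-coding genes 25.9% ± 1.27 (SD, n = 3 each), and the shares did not overlap. All 3 restricted lists called 32 members (38.1%), against 20.4% of protein-coding genes. No test of the list was made, since its members were chosen with earlier results of these data known.

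The share of bound genes was unequal among the families. Bound were 4 of 6 Cog genes (66.7%), 13 of 19 Sec genes (68.4%), 16 of 27 Vps genes (59.3%), CHMP2B, and 9 of 31 Rab genes (29%), which is near the 26.2% of all protein-coding genes. The Sec share in all 3 restricted lists was 57.9%, the Cog share 50%, the Vps share 40.7% and the Rab share 19.4%, against 20.4% of protein-coding genes. Bound members were not placed high among bound genes. Their median optimal signal was 321, against 335 over all bound protein-coding genes, and 21 of the 43 were above that value. Among the top 2931 of the 5862 optimal peaks lay those of 24 members. These were 55.8% of the bound members, against 62.7% of bound protein-coding genes. Over all genes, bound or not, they were 28.6% of the 84, against 16.4% of protein-coding genes. Medians of the bound members by family were 246 for Cog, 351 for Sec, 342 for Vps and 234 for Rab.

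**Figure D1:**
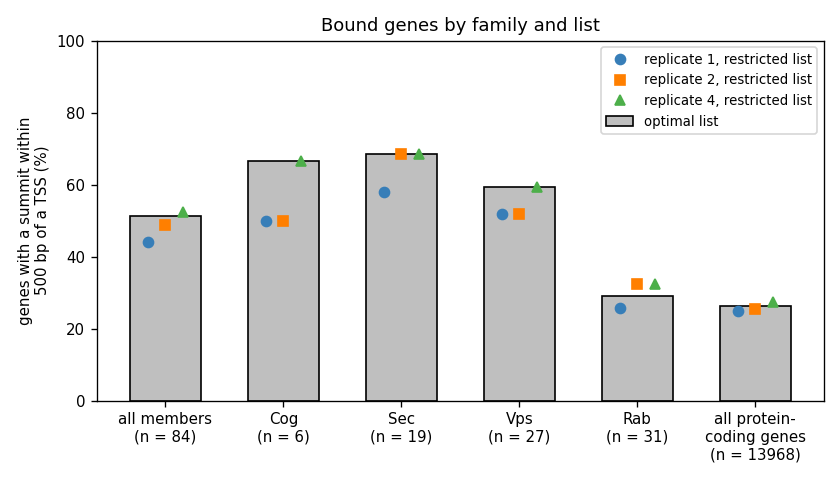
Percentage of genes called at a TSS, for all members, for each family except the single CHMP gene, and for all protein-coding genes (n genes each); bars are the optimal list and points the restricted lists of replicates 1, 2 and 4. The Cog, Sec and Vps bars stand between 59.3% and 68.4%, and the Rab bar, at 29%, stands close to the 26.2% of all protein-coding genes.

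The highest signal among the members was at CHMP2B (FBgn0035589), a subunit of the ESCRT-III filament that constricts membrane necks. Its peak had signal 2483 and rank 18 of 5862 in the optimal list, and in replicates 1, 2 and 4 the signal was 927, 563 and 1015, at ranks 17, 17 and 26. The summit lay 131 bp upstream of the CHMP2B TSS and 93 bp from the TSS of Tcs5, the divergent neighbour. Next came Vps33B (FBgn0039335), a Sec1-like protein that works with Vps16B in endosomal fusion, with signal 1697 at rank 68. Its signal was 642, 393 and 657 in replicates 1, 2 and 4, at ranks 47, 50 and 114. That summit lay 164 bp upstream of Vps33B and 268 bp from the TSS of Fur1, a furin-type protease. These were the only 2 members in the top 100 of the optimal list. All other bound members had signals from 152 to 684.

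The windows of 101 bp centred on the summits of the 4 members of highest signal are printed next because they carry the strongest regions of the list, with that of Rab5 (FBgn0014010), the early-endosome Rab, as the Rab GTPase of highest signal whose own TSS is nearest. Sequence is the plus strand of the RefSeq Release 6 assembly (dm6), 5′ to 3′. Capitals mark any match, on either strand, to a word searched below; here these are TATAAA or its reverse complement.
CHMP2B, chr3L:5139438-5139538: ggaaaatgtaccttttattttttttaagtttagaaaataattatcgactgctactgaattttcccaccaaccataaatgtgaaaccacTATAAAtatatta
Vps33B, chr3R:25473276-25473376: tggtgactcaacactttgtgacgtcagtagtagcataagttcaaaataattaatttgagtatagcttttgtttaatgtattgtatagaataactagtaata
Rab3GAP1, chr2L:1611242-1611342: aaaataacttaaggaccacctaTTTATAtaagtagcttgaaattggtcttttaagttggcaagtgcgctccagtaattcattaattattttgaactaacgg
Sec15, chr3R:21108327-21108427: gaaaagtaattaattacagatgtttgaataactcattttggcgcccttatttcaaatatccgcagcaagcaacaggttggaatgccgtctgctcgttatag
Rab5, chr2L:2363692-2363792: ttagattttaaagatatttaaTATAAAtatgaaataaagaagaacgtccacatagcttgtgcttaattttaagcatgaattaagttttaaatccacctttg
Each of these summits lies upstream of a TSS of the member, and that of Rab5 lies inside the gene, upstream of 1 of its 6 TSS. The Vps33B and Sec15 windows hold none of the words.

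**Figure D2:**
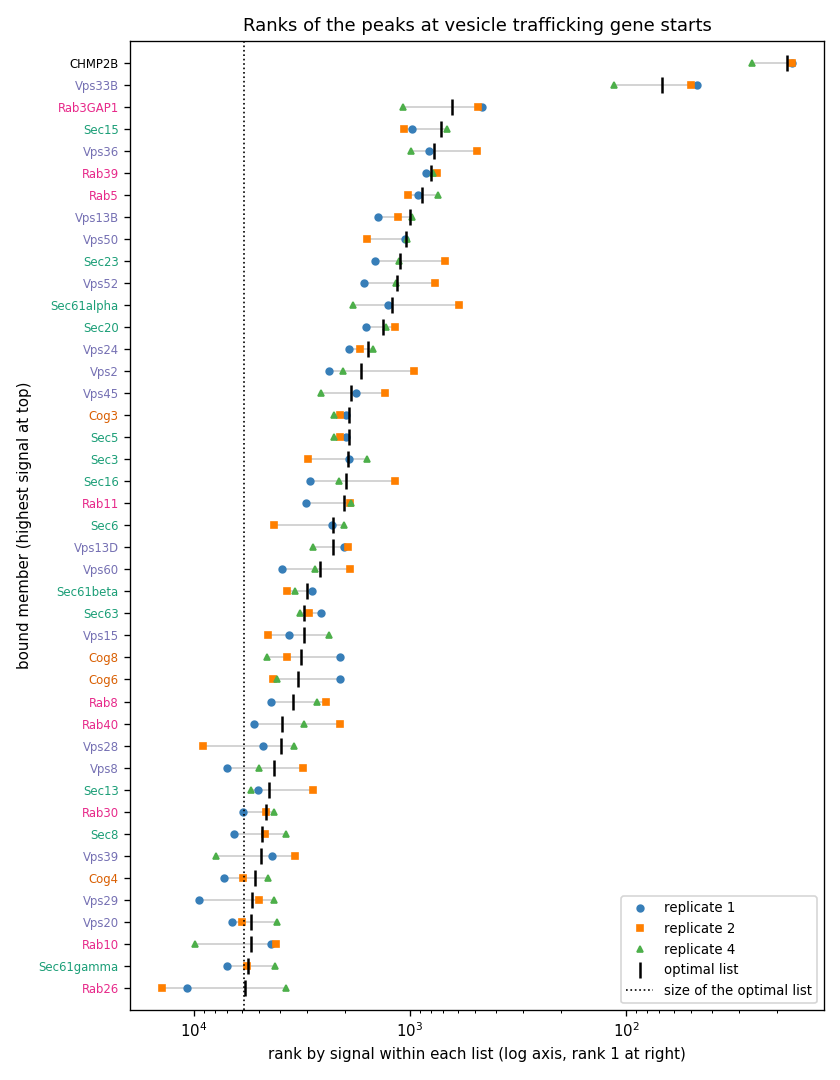
Rank of each bound member's region in the 3 replicate lists (log axis, rank 1 for the highest signal), members in order of optimal signal. CHMP2B and Vps33B hold ranks from 17 to 114 in every replicate, while the members at the other end spread widely, with Rab26 between ranks 3737 and 14061.

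Among the coat genes, the COPII coat, which buds vesicles from the endoplasmic reticulum, had 3 of 6 genes bound (50%, against 26.2% of all protein-coding genes). The complexes described next hold 1 to 10 genes each, so 1 gene moves such a share widely. Their counts include members with another gene's TSS nearer to the summit, and shares by nearest TSS only were not computed by complex. Sec23 (FBgn0262125), an inner coat subunit that activates the GTPase Sar1, had signal 506 (rank 1114), and 142, 144 and 233 in replicates 1, 2 and 4 (ranks 1447, 688 and 1127). Its summit lay 145 bp upstream of its TSS and 182 bp from that of MTA1-like. Sec16, which organises exit sites, followed with signal 351, and Sec13, of the outer coat, had 190. Sec31, the other outer coat subunit, and both cargo-binding subunits, Sec24AB and Sec24CD, were not bound. The coat was thus split within its inner and within its outer layer. Sar1, whose symbol falls outside the rule and the count of 6, was not bound either.

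All 4 genes of the translocon were bound, against 26.2% of all protein-coding genes. Sec61alpha (FBgn0086357), the channel subunit, had signal 480 (rank 1209), and 154, 155 and 175 in replicates 1, 2 and 4 (ranks 1257, 593 and 1829). The summit lay 155 bp upstream of its TSS, with the starts of Daxx, a histone chaperone, and lncRNA:CR45463 at 199 and 200 bp. Sec61beta had 265, Sec63 258 and Sec61gamma 158. Sec61alpha ranked highest of the 4 in every replicate, and Sec61gamma lowest.

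Of the exocyst, which tethers secretory vesicles at the plasma membrane, 5 of 6 genes with a Sec symbol were bound, all but Sec10 (83.3%, against 26.2% of all protein-coding genes). Sec15 (FBgn0266674), the subunit that binds Rab11, had signal 646 (rank 717), and 180, 114 and 308 in replicates 1, 2 and 4 (ranks 975, 1063 and 674). Its summit lay 405 bp upstream of its TSS and only 69 bp from that of rtet. Sec3 (FBgn0266669) had 359 (rank 1924), and 116, 56.5 and 191 in replicates 1, 2 and 4 (ranks 1922, 2952 and 1574), 112 bp upstream of its TSS and 148 bp from COX7B, a cytochrome c oxidase gene. Sec6 had 321 and Sec8 179. With Exo70 and Exo84, subunits with other names, 7 of 8 exocyst genes were bound.

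Sec5 (FBgn0266670) of the exocyst and Cog3 (FBgn0031536) of the COG complex start 238 bp apart on opposite strands and shared 1 peak. It had signal 359 (rank 1921), and 114, 72.7 and 154 in replicates 1, 2 and 4 (ranks 1983, 2105 and 2246), so its rank was similar in all 3. Its summit lay 35 bp from the Sec5 TSS and 203 bp from the Cog3 TSS. The 43 bound members therefore rest on 42 peaks. The window is printed because it lies between genes of 2 tethering complexes; it is trimmed where the transcribed untranslated part of Sec5 begins, and capitals mark TATAAA on the minus strand.
Cog3 and Sec5, chr2L:3457217-3457301: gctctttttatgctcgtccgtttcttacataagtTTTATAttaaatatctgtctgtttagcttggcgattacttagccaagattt

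Of the other COG genes, Cog8 (FBgn0287204) had signal 249 (rank 3205), and 109, 47.5 and 93.1 in replicates 1, 2 and 4 (ranks 2114, 3712 and 4602), 36 bp upstream of its TSS with no other start within 500 bp. Cog6 (FBgn0033401) had 244 (rank 3286), and 110, 41.7 and 101 in replicates 1, 2 and 4 (ranks 2100, 4302 and 4105), with the CG2063 TSS 18 bp from the summit. Cog4 (FBgn0032258) had 168 (rank 5196), and 41.6, 31.5 and 94.2 in replicates 1, 2 and 4 (ranks 7238, 5943 and 4523), with the CG6144 TSS 16 bp away. Cog4 thus fell outside the top 5862 in replicates 1 and 2, while Cog6 and Cog8 were inside in all 3. Cog1 had no region in any list, and Cog2 had only a pooled region at rank 22353 and a region in replicate 4 at rank 18119.

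SNARE and fusion genes were few among the symbols. Sec20 (FBgn0037383), a SNARE of Golgi-to-endoplasmic-reticulum traffic, had signal 455 (rank 1338), and 133, 106 and 215 in replicates 1, 2 and 4 (ranks 1602, 1173 and 1293), with dgrn, a ubiquitin ligase gene, 17 bp from the summit. Sec22, a second SNARE, was not bound. Vps45, a Sec1/Munc18 protein of endosomal fusion, was bound with 365. Sec71, an Arf exchange factor with a Sec7 domain, was not.

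In the ESCRT machinery 7 of 10 genes were bound (70%, against 26.2% of all protein-coding genes). Besides CHMP2B these were Vps36 (FBgn0086785), an ESCRT-II subunit, with signal 616 (rank 777), and 199, 170 and 253 in replicates 1, 2 and 4 (ranks 814, 487 and 985), its summit 113 bp upstream and 29 bp from Liprin-beta. Vps24 (FBgn0037231), of ESCRT-III, had 411 (rank 1563), and 117, 84.3 and 198 in replicates 1, 2 and 4 (ranks 1921, 1692 and 1480), but its summit lay 383 bp upstream, nearer to Suv3, a mitochondrial RNA helicase gene, at 225 bp. Both were among the top 5862 regions of every replicate. Vps2 had 391, Vps60 290, Vps28 212 and Vps20 162. At CHMP2B, Vps36, Vps24 and Vps2 another gene's TSS was nearer to the summit than the member's own. The Vps2 peak is also the one counted for Exo84 of the exocyst. Vps4, the ATPase that recycles ESCRT-III, Vps25 and Vps37B were not bound. Of the ESCRT genes with other names 1 of 7 was bound (Stam, 362), so the count over both sets was 8 of 17.

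Tethers of the endosome and Golgi were mixed. For GARP and EARP, 2 of 4 genes were bound (50%, against 26.2% of all protein-coding genes). Vps50 (FBgn0034271), the EARP subunit, had 524 (rank 1037), and 173, 88.6 and 246 in replicates 1, 2 and 4 (ranks 1058, 1577 and 1030), with PIG-A, a gene of glycolipid anchor synthesis, 90 bp from the summit. Vps52 (FBgn0031710), shared by both complexes, had 497 (rank 1144), and 131, 136 and 228 in replicates 1, 2 and 4 (ranks 1623, 769 and 1165), with Elp4 of Elongator 52 bp away. In both cases the neighbour's TSS was nearer to the summit than the member's own. Vps53 and Vps51, the partners of Vps50 and Vps52, were not bound, and Vps51 had no region in any list. For HOPS, CORVET and related genes 3 of 6 were bound (50%): Vps33B (above), Vps8 with 198 and Vps39 with 176, while Vps11, Vps16A and Vps16B were not. Vps16B is the partner of Vps33B, and its TSS had regions in the lists of replicates 2 and 4 only, at ranks 12140 and 23249. With car, dor and lt, subunits with other names, 4 of 9 genes of this set were bound.

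Retromer had 1 of 3 genes bound (33.3%, against 26.2% of all protein-coding genes), Vps29 with signal 163; Vps26 and Vps35 had pooled regions at ranks 13792 and 29225. Vps15, a regulatory subunit of the class III phosphatidylinositol 3-kinase, was bound with 256. Of the lipid-transfer genes 2 of 3 were bound (66.7%). Vps13B (FBgn0039727) had 535 (rank 996), and 144, 109 and 255 in replicates 1, 2 and 4 (ranks 1411, 1129 and 977), its summit 82 bp upstream of its TSS and 8 bp from that of eIF2Balpha, a translation initiation factor gene. Vps13D had 320, and Vps13 was not bound, with a pooled region at rank 8453.

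**Figure D3:**
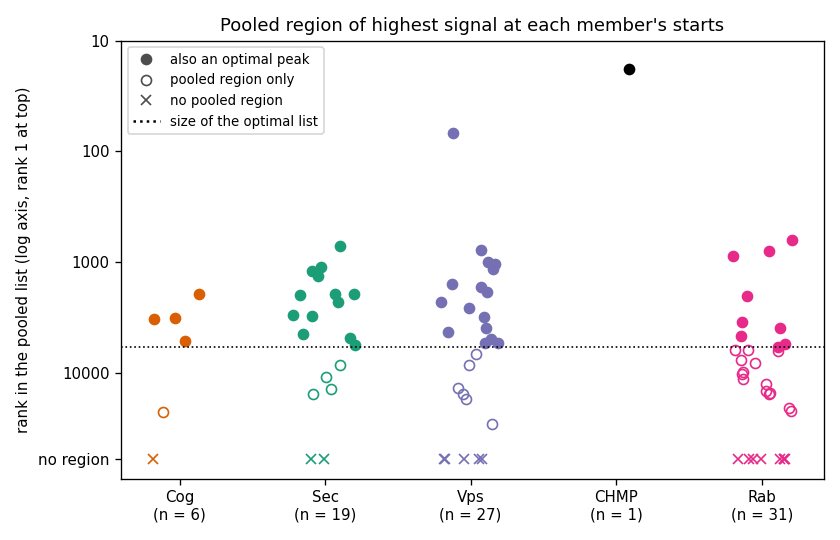
Rank in the pooled list (log axis, rank 1 at the top) of the region of highest signal within 500 bp of a TSS of each member, by family; filled circles are also optimal peaks, open circles are pooled regions only, and crosses have no pooled region. All filled circles lie above the dotted line at the size of the optimal list, 5862, and most Rab genes lie below it or have no region.

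Rab GTPases switch between GTP-bound and GDP-bound states and mark compartments, and 8 of the 28 were bound (28.6%, against 26.2% of all protein-coding genes). Rab39 (FBgn0029959) had the highest signal of them, 608 (rank 798), and 195, 139 and 286 in replicates 1, 2 and 4 (ranks 842, 745 and 783). However, its summit lay 302 bp upstream of Rab39 and 30 bp from the TSS of Pdp, a pyruvate dehydrogenase phosphatase gene. It was on the transcribed side of the Pdp TSS. Rab5 (FBgn0014010) had 578 (rank 882), and 187, 115 and 293 in replicates 1, 2 and 4 (ranks 913, 1023 and 744), inside the gene and 238 bp upstream of the nearest of its 6 TSS, with no other gene's start within 500 bp of the summit. Rab11 (FBgn0015790), of recycling endosomes, had 347 (rank 2024), and 85.4, 78.4 and 172 in replicates 1, 2 and 4 (ranks 3025, 1887 and 1876), 142 bp upstream and also with no other start nearby. Rab5 and Rab11 thus stand apart from Rab39 in having no other gene's start near the summit.

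Rab8 (FBgn0262518), of secretory traffic, had 234 (rank 3485), and 62.3, 65.2 and 137 in replicates 1, 2 and 4 (ranks 4407, 2446 and 2695), 20 bp upstream and 41 bp from Usp32. Rab40 (FBgn0030391) had 213 (rank 3905), and 53.7, 72.7 and 124 in replicates 1, 2 and 4 (ranks 5282, 2103 and 3099), with CG42258 at 254 bp. Rab30 had 185, Rab10 161 and Rab26 152. Of the regulators, Rab3GAP1 (FBgn0051935), whose product belongs to the Rab3 GTPase-activating complex, had 684 (rank 638), and 267, 170 and 241 in replicates 1, 2 and 4 (ranks 464, 485 and 1074), with CG14352 118 bp from the summit. It had the highest signal of the Rab symbols, while Rab3-GAP and Rab3-GEF were not bound. It was placed further down the list in replicate 4 than in the other two.

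Rab genes made up 5 of the 6 members just below the optimal list. They are also many of the unbound members with a pooled region. Of the 31 Rab genes 23 had a pooled region and 9 were bound, against 68 and 43 of all 84 members. The 6 unbound members of highest pooled signal were Rab7 of late endosomes (145, rank 6155), Rab1 of early secretion (144, rank 6220), Rab23 (142, rank 6357), Vps11 (133, rank 6805), Rab21 (120, rank 7638) and Rab18 (113, rank 8182). The 6 bound members of lowest signal were Rab26 (152), Sec61gamma (158), Rab10 (161), Vps20 (162), Vps29 (163) and Cog4 (168), and the lowest signal in the optimal list was 151. The values on both sides of the threshold were therefore close. In the replicate lists they were mixed too: Rab7 was at ranks 9795, 8096 and 5629 in replicates 1, 2 and 4, and Rab26, which is bound, at 10690, 14061 and 3737. Rab2 of the early secretory pathway had a pooled region at rank 10271, and Rab4 and Rab6 had a region in replicate 4 only. The remaining GTPase genes with a pooled region but no optimal peak within 500 bp of a TSS were Rab3, Rab9, Rab14, Rab19, Rab27, Rab32 and Rab35. Their pooled ranks ran from 9898 to 22332.

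Of the 41 unbound members, 25 had a pooled region, 9 had a region in a replicate list only, and 7 had none in any list. In 7 of the 9 the region was in replicate 4 alone (Rab4, Rab6, Sec10, Sec31, Vps25, Vps37B and Vps53); the others were Rab3-GEF and Vps16B. The 7 without any region were Cog1, Vps51, Rab9D, Rab9Db, Rab9E, Rab9Fa and Rab9Fb. The last 5 are related genes on X, where reads may be hard to place; how such reads were treated is not given in the sources used here, and the part it plays was not tested. Of the unbound members, 7 were among the top 5862 regions of exactly 1 replicate and none of 2 or more. Of the bound members, 32 were so placed in all 3 replicates, 8 in 2 and 3 in 1. All 43 had a region in each full replicate list.

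Replicates ordered the bound members alike. Across the 43 bound members, the rank correlation of signal was 0.854 between replicates 1 and 2, 0.865 between 1 and 4, and 0.816 between 2 and 4. These genes were chosen by the pooled libraries that the 3 replicates make up, so the values describe only the order among them.

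Most summits lay just upstream of the member's TSS. Of the 43, 39 (90.7%) were upstream, against 87.8% of bound protein-coding genes, at a median of −120 bp (−141 bp over all bound protein-coding genes) and over a range from −437 to 83 bp. For 7 members with 2 optimal summits at their TSS, the one of higher signal is given. The 4 downstream were at Sec61gamma, Sec13, Vps60 and Vps20. Among the members, signal went together with distance from the member's own TSS. The 24 in the top 2931 peaks had a median of −138 bp, with 3 within 60 bp of that TSS. The 19 in the remainder of the list had a median of −47 bp, with 11 within 60 bp. Over all bound protein-coding genes these medians were −152 and −110 bp, with 12.1% and 27.3% within 60 bp. The rank correlation of signal with absolute distance was 0.437 across the 43 members, 2 of which share a peak, and 0.0895 across the 3658 bound protein-coding genes. For 17 of the 43 another gene's TSS was nearer than the member's. Some were in the top 2931 (Vps13B, 8 bp from eIF2Balpha, and Sec20, 17 bp from dgrn). Others were below it (Cog4, 16 bp from CG6144, and Cog6, 18 bp from CG2063). Signal was not compared with distance to the nearest start of any gene.

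**Figure D4:**
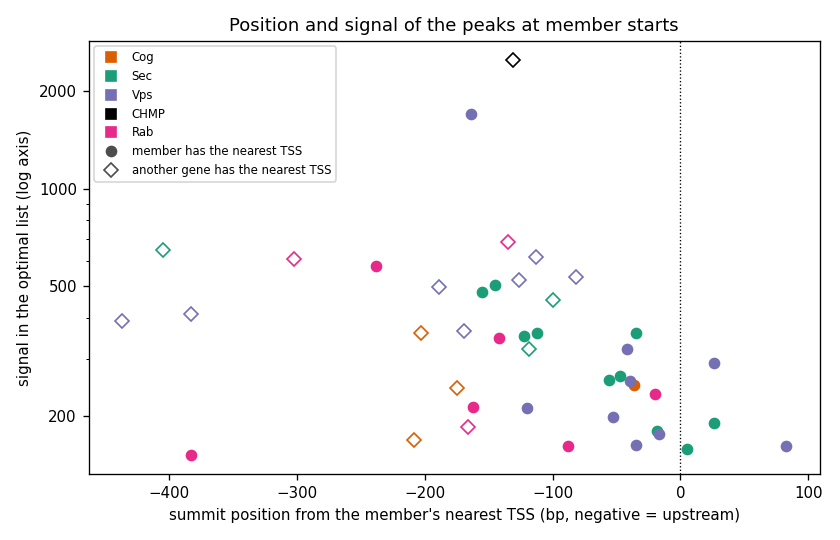
Signal in the optimal list (log axis) against the summit's distance in bp from the member's nearest TSS (negative is upstream); colours are families, and open diamonds are members for which another gene's TSS is nearer. Peaks within 60 bp of a member's TSS have signals of 158 to 359, and CHMP2B (2483) and Vps33B (1697) lie 131 and 164 bp upstream.

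Many summits lie near the starts of 2 genes, so a peak near a member is not the member's alone. At Rab39, Sec20, Rab30 and Cog4 the summit lay beyond a start of the neighbour, on the neighbour's transcribed side. The member's own TSS was the nearest for 26 of the 43 (60.5%), against 68.9% of bound protein-coding genes, and for 17 another gene's TSS was nearer. Another gene started within 500 bp of the summit in 34 cases (79.1%, against 64.5% of bound protein-coding genes) and in 9 there was none. If only the gene with the nearest TSS is counted for each optimal summit, 28 members (33.3%) are called, against 19.3% of protein-coding genes; this moves the members' count by over 1.5 times.

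A divergent neighbour, meaning the start of another protein-coding gene on the opposite strand and within 1000 bp upstream, was present at 52 of the 84 members (61.9%), against 36.2% of protein-coding genes. Among genes with one, 38 of 52 members (73.1%) were bound, against 48.4% of protein-coding genes. Among genes without one, 5 of 32 members (15.6%) were bound, against 13.6%. The 5 were Cog8, Rab11, Sec8, Vps20 and Vps28. All 12 Sec genes with a divergent neighbour were bound and 1 of 7 without, and the counts for Vps genes were 14 of 18 and 2 of 9, for Cog genes 3 of 4 and 1 of 2, and for Rab genes 8 of 17 and 1 of 14. The neighbour was sought at any TSS of a gene, so a counted peak need not lie between the 2 starts. At Rab5 (Axud1, 72 bp), Rab26 (Pc, 754 bp), Sec61beta (Su(var)2-HP2, 653 bp) and Vps15 (CG8420, 780 bp) no other gene started within 500 bp of the summit. The part of divergent neighbours in the members' share was not tested beyond these counts.

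**Figure D5:**
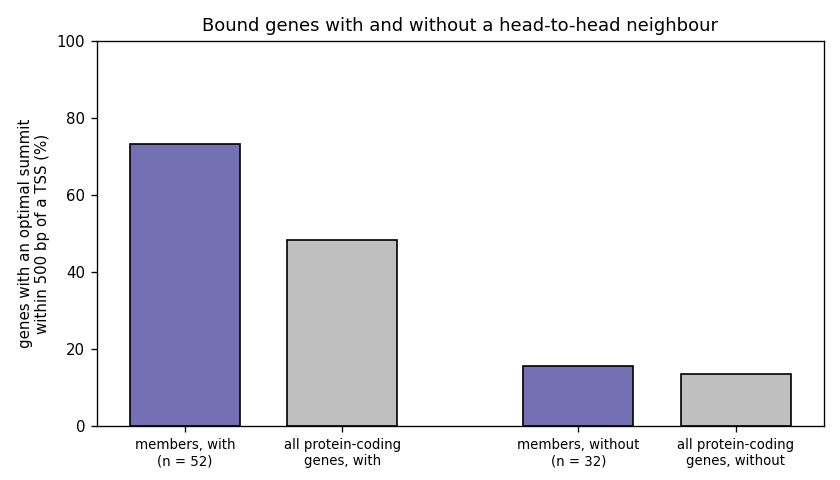
Percentage of bound genes, for members and for all protein-coding genes, split by whether another protein-coding gene starts divergently within 1000 bp of any TSS of the gene. Members with a divergent neighbour stand at 73.1%, against 48.4% of protein-coding genes, and those without stand at 15.6%, against 13.6%.

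The divergent partners were mostly not trafficking genes. Besides Cog3 and Sec5, the only pair of listed trafficking genes that shared a peak was Vps2 with Exo84, an exocyst gene: these start 564 bp apart, and the summit lay 437 bp from Vps2 and 127 bp from Exo84. Sec6 shared its peak with Atg7, an autophagy gene, with starts 118 bp (Sec6) and 87 bp (Atg7) from the summit. Sec15 and Rab11, whose products bind each other, lie close together on 3R with separate peaks, their summits 2889 bp apart.

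A few members also held optimal summits inside the gene and more than 500 bp from their own TSS. Rab11 held 2 (signals 401 and 165), Sec13 1 (524, at 587 bp from a TSS) and the unbound genes Rab14 (477, at 575 bp), Rab23 (171), Rab32 (172) and Sec24AB (160) 1 each. The share of all protein-coding genes with such a summit was not counted. The Sec13 and Rab14 summits lie just outside the 500 bp limit. The Rab32 summit lay 248 bp from the start of lncRNA:CR44284, and the Sec24AB summit 150 bp from that of asRNA:CR45467. At Sec13 the inner peak had a higher signal than that at its start (190). The same held at Rab11 for the inner peak of signal 401, against 347 at its start.

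Words, most of them known from fly promoters, were sought on both strands in the 101 bp centred on each of the 42 member summits, and none of the words contains another. The word TATAAA, whose letters are those of the TATA box, was in 17 windows (40.5%). It was in 21.3% of the 2983 optimal peaks at protein-coding starts and 10.7% of the 6137 pooled regions below the optimal list at such starts. Matches on either strand and anywhere in the window counted. Their position and strand relative to a TSS were not considered, so they are not called TATA boxes of the members. An E-box, CAGCTG, was in 7 member windows (16.7%), against 5.33% of those optimal peaks and 6.78% of the pooled regions below. With 25 bp on each side of the summit in place of 50 the members' counts fell by over 1.5 times, to 11 windows with TATAAA (26.2%, against 12.4% of the optimal peaks) and 2 with CAGCTG (4.76%, against 2.55%). The DRE, to which the factor DREF binds, is spelled TATCGATA here and was in 4 member windows (9.52%), against 4.36% of the optimal peaks and 2.77% of the pooled regions below.

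The other words were in no member window. The GAGA factor's word, GAGAG, was in 8.28% of the optimal peaks and 14% of the pooled regions below. The word GGTCACAC, core of a motif of core promoters, was in 2.25% of the optimal peaks and 2.44% of the pooled regions. TGCGGATG, a word chosen with earlier results of these data known, was in 1.01% of the optimal peaks and 0.603% of the pooled regions. No match says only that the letters are not in these windows. The median GC content was 31.2% in member windows, against 33.7% in the optimal peaks and 44.6% in the pooled regions, and its part in these counts was not tested.

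The 4 windows with TATCGATA are printed because it is the longest word found in the members, and they belong to members of 3 families that all lie in the lower part of the optimal list. They are trimmed where they reach untranslated transcript bases, on the plus strand of the same assembly, with TATCGATA and CAGCTG in capitals. The bases trimmed away held a further word in Vps15 (CAGCTG) and in Vps39 (TATAAA).
Sec63, chr3L:7360455-7360555: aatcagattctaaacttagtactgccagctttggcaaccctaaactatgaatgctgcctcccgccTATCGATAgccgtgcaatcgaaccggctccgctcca
Vps15, chr3R:9245870-9245958: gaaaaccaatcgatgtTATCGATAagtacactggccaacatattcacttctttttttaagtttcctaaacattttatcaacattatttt
Rab8, chr3L:19871079-19871138: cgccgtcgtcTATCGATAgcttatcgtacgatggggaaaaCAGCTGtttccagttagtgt
Vps39, chr3R:18274447-18274513: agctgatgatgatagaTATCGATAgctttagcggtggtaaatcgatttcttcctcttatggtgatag
The word starts 15 bp to the right of the summit at Sec63, 22 bp to the left at Vps15, 9 bp to the left at Rab8 and at the summit itself at Vps39. In each of these 4 members the member's own TSS is the nearest, at 56 bp in Sec63, 39 bp in Vps15, 20 bp in Rab8 and 17 bp in Vps39. A match is a description of letters and not a mapped site.

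The members were spread over the arms. Bound were 5 of 18 on X, 10 of 17 on 2L, 6 of 16 on 2R, 9 of 11 on 3L and 13 of 22 on 3R; 24.4% to 28.6% of protein-coding genes on these 5 arms were bound. The 5 Rab9-type genes without a region are among the 18 on X.

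Trafficking genes with other kinds of names were taken from a separate list of 102 symbols, of which 95 matched a gene. Of these, 50 (52.6%) were bound, against 26.2% of protein-coding genes, with a median signal of 368. The COPI coat of Golgi vesicles had 4 of 7 bound (alphaCOP 1073, deltaCOP 541, beta'COP 539), and Arf-family GTPases and their regulators 6 of 9 (Arl1 1611, garz 808, ArfGAP3 512). Clathrin and its adaptors had 9 of 14 (AP-1sigma 814, AP-2alpha 798, cm 548), and SNAREs and fusion factors 16 of 29 (Snap29 733, Vti1b 649, gammaSnap1 482). TRAPP tethers had 4 of 7 (brun 549, Bet3 264, Trs20 235), and the other Rab genes and regulators 6 of 11 (Mon1 920, Rbsn-5 794, RabX1 319). Lowest were the ESCRT genes with 1 of 7, sorting nexins with 1 of 6 (Snx3 217) and HOPS and CORVET genes with 1 of 3 (car 383).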

How the data were processed

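The measurement was ChIP-seq of GFP-tagged CG13775 in 3 replicate libraries of embryos. The authors deposited region lists for the dm6 assembly, which were used here, and the signal of each region was given by the authors' peak caller; the caller, its version and any treatment of reads with several positions are not given in the sources used here. Depth per library is unknown. Signal was ranked within each list, and the summit is the start plus the offset of the list, counted from 1. The lists for dm3 were not used here, since no gene annotation of that build was used. TSS of genes on the arms, transposable elements left out, came from the Ensembl BDGP6 annotation, and sequence from RefSeq Release 6.

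Members, roles and pathway lists were chosen with earlier results of these data known. Named in full were the up to 6 bound members of highest signal of each family; neighbours within 500 bp of their summits, the 6 bound members of lowest signal, the 6 just below the optimal list, members with no region, and up to 3 pathway genes per role were named too. Every other bound member is named with its signal. Other unbound members, Sar1, dor, lt and the genes with inner summits were named after their values were seen. Assignment of summits was tested on simulated data: 200 of 200 summits planted over 13968 genes were recovered. Python 3.11.15, numpy 2.4.6, pandas 2.3.3 and matplotlib 3.10.9 were used. Alternatives were distances of 250 and 1000 bp, stricter lists, other windows and leaving out each replicate.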

Additional observations from a re-analysis of the deposited data

How the results depend on the processing

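Of 48 alternative values, 38 stayed within 1.5 times the value reported, and 10 did not. Among the top 2931 optimal peaks, bound members numbered 24 in place of 43 (Cog 1, Sec 8, Vps 10, Rab 4), and counting only the nearest TSS gave 28. With 2931 regions per replicate, 20 members (23.8%, against 13% of protein-coding genes) in place of 32 were in every replicate list. Leaving out each replicate in turn gave 33 to 37. In windows of 25 bp on each side CAGCTG was in 2 member windows (4.76%, against 2.55% of optimal peaks at protein-coding starts and 3.7% of pooled regions below) and TATAAA in 11 (26.2%, against 12.4% and 5.15%). With 100 bp GAGAG was in 2 (4.76%, against 18.4% and 25.4%). Within 250 bp 39 members were bound (46.4%, against 21.4% of protein-coding genes), without Rab26, Rab39, Sec15 and Vps24, and within 1000 bp 46 (54.8%, against 29.3%), with Rab14, Rab18 and Sec24AB.

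No paired analysis was possible because the study has 1 group. Without reads, an input library or an untagged line in hand, depth, local background and signal from the tag or antibody could not be measured, and the count for a family of few genes moves by a large share with each gene.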
